A study of Mus musculus with 16 samples.

Results

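Lipoprotein lipase is the enzyme that frees fatty acids from circulating triglyceride-rich lipoproteins, and this account describes the genes for the enzyme, its partners and the receptors and apolipoproteins through which lipoproteins and their fatty acids are taken up. The 10 genes are Lpl, Gpihbp1, Lmf1, Angptl4, Vldlr, Lrp1, Cd36, Apoe, Apoc1 and Sorl1. They were chosen by name, with earlier results of these data known. Every probe set of the array whose annotation gives exactly 1 of these symbols was taken, which gave 23 of 45101 probe sets and 10 of the 18194 genes with a value. RNA of subcutaneous white adipose tissue (sWAT) and of brown adipose tissue (BAT) from between the shoulder blades was hybridised to Affymetrix arrays. The animals were LACA (Laboratory Animal Centre A) mice labelled male, weighing 25 ± 3 g, fed standard chow and given no treatment in either group. Each tissue had 4 replicates with 2 arrays each, 16 arrays in all, and the 2 arrays of a replicate were averaged before any comparison.

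Lipoprotein lipase is made by adipocytes and muscle cells, needs the chaperone Lmf1 to fold, and is carried to the capillary wall by Gpihbp1 of endothelial cells. Angptl4 inactivates it, and Apoc1 and Apoe ride on the particles it acts on. Vldlr and Lrp1 bind lipoproteins and the lipase itself, Cd36 takes in the released fatty acids, and Sorl1 is a sorting receptor of the same wider family that moves cargo, the lipase included, between membranes inside the cell. Brown fat is known for taking up triglyceride-derived fatty acids from the blood as fuel for heat.

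The deposited values are log2 signals centred so that every probe set has its median at 0 across 16 arrays. They therefore compare samples within a gene and give no level of 1 gene against another. The defining brown fat gene Ucp1 differed by 7.58 ± 0.49 (log2, BAT minus sWAT, SE), Cidea by 3.68 ± 0.65, and 9 of 9 measured brown adipocyte markers were higher in BAT. Of the libraries, 2 stood apart. In sWAT replicate 3 the first array, and in BAT replicate 1 the second, had 5′ control signals of -4.79 and -3.56 (log2) relative to the 3′ ones, against -1.23 to 0.46 on the other 14 arrays. The labels also did not hold for every sample. Xist, a transcript of female cells, lay between 5.39 and 6.46 (log2) on the arrays of BAT replicates 1, 2 and 3, and between -0.44 and 0.07 on those of BAT replicate 4 and of all sWAT replicates. The signal of Y-linked genes went the other way, between -2.25 and -1.65 (log2) on the arrays of BAT replicates 1, 2 and 3. On every other array it lay between 0.11 and 0.70. By both signals the RNA of those 3 BAT replicates was female and that of the other replicates male. Sex and tissue therefore cannot be told apart for those 3 BAT replicates. Values without the low arrays or without those replicates are given beside the members they change. The same replicate number in both tissues is taken from the design as a block in the test. The methods name 4 mice as the source of both tissues, but Xist and the Y-linked genes differed between the tissues of numbers 1, 2 and 3. By these genes the tissues of those numbers did not come from the same animal. The values without the block are given where they change a call.

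Of the 10 genes, 5 rose in BAT (Gpihbp1, Lmf1, Vldlr, Cd36 and Apoc1) and 1 fell (Sorl1), in the limma test with Benjamini-Hochberg adjustment over all genes. Of all genes tested 38.4 percent passed that threshold, 21.0 percent higher and 17.5 percent lower in BAT. By probe set, 11 of 23 were higher and 4 were lower in BAT, against 32.4 percent of all probe sets in either direction, 15.1 percent higher and 17.3 percent lower. Vldlr held 6 of the 11 and Sorl1 3 of the 4, so repeated probe sets of single genes weigh in these counts. The median difference (BAT minus sWAT, log2) was 0.52 over the 10 genes and 0.15 over all genes. Replicates of the tissues did not overlap for 13 of the 23 probe sets, 10 higher (23.2 percent of all probe sets) and 3 lower (17.7 percent), against 40.9 percent of all probe sets in either direction. Those 10 include every Vldlr probe set, and those 3 are the Sorl1 ones. By gene they did not overlap for 5, 4 higher (28.0 percent of all genes) and 1 lower (17.4 percent), against 45.4 percent of all genes. In RNA of whole tissue, fewer cells of a type and less RNA per cell cannot be told apart.

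**Figure D1:**
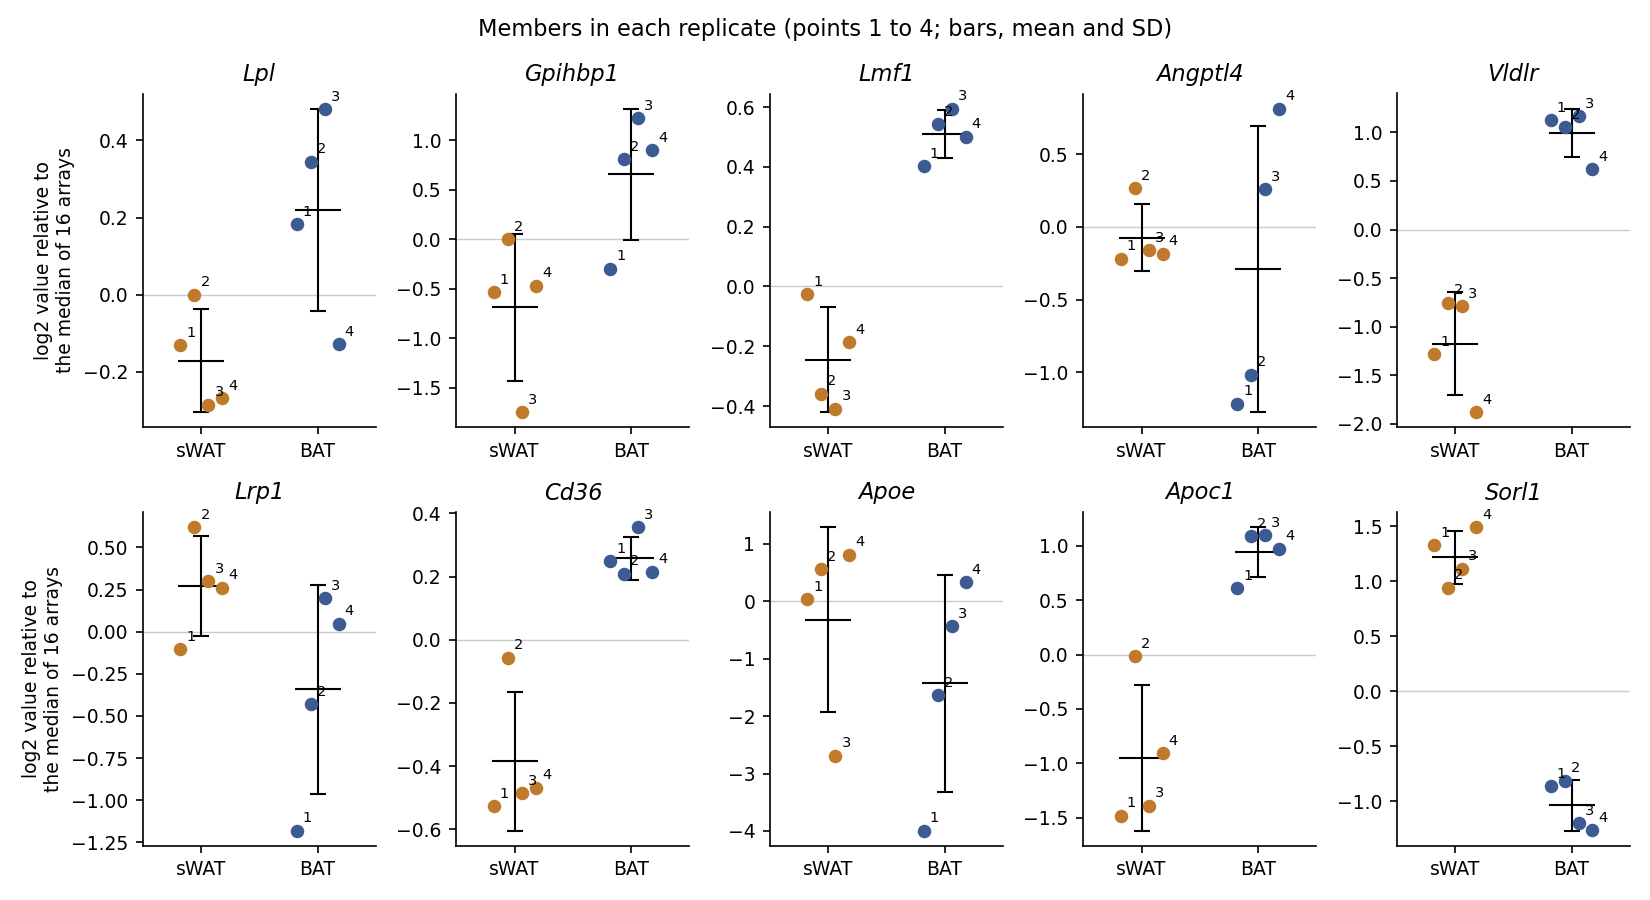
Value of each gene (mean of its probe sets, log2 relative to the median of 16 arrays, vertical axis with its own range in each panel) in the 4 sWAT and 4 BAT replicates, numbered 1 to 4, with mean and SD. Vldlr, Lmf1, Cd36 and Apoc1 lie higher in every BAT replicate than in any sWAT replicate and Sorl1 lies lower, while Angptl4 and Apoe spread widely among the BAT replicates.

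Lpl itself, the lipase, did not pass the test. Its values in sWAT replicates 1 to 4 were -0.13, 0.00, -0.29 and -0.27, and in BAT replicates 1 to 4 they were 0.18, 0.35, 0.48 and -0.13 (log2). BAT replicates 1, 2 and 3 lay above every sWAT replicate, and BAT replicate 4 lay among them. The difference was 0.39 ± 0.14 (SE, n = 4 per tissue), 1.31-fold, with an adjusted p of 0.063 in limma. Its probe sets differed by 0.36 (1415904_at) and 0.42 (1431056_a_at), and neither passed. The call turned on the samples and on the block. Without the 2 low arrays the difference was 0.36 with an adjusted p of 0.029, and without the replicate block the adjusted p was 0.046. Without BAT replicate 4, and without the block, the difference was 0.51 ± 0.12 (adjusted p = 0.0084). With BAT replicate 4 as the only BAT sample it was 0.04.

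Genes whose 8 replicate values lay nearest those of Lpl, by root mean square difference on the log2 scale, were Jkamp (0.048), Gid8 (0.082), Acta2 (0.082), Ccdc84 (0.087) and Plcb4 (0.090). Among the 10 genes Cd36 was nearest at 0.22 and Apoe farthest at 1.93. These distances describe 8 samples and carry no test.

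Lmf1, the endoplasmic reticulum protein without which the lipase does not fold, rose in BAT. Its sWAT values were -0.02, -0.36, -0.41 and -0.19, and its BAT values were 0.40, 0.54, 0.59 and 0.50. The tissues did not overlap, and the BAT replicates lay close together. The difference was 0.76 ± 0.14 (SE, n = 4), 1.69-fold, with an adjusted p of 0.0051. Its probe sets disagreed. The first, 1424259_at, differed by 1.44 ± 0.27 and passed, whereas 1445833_at differed by 0.07 ± 0.15 and did not, so the gene value is the mean of unlike differences. The gene's call was lost in the second arrays alone (0.49, adjusted p = 0.070). It was also lost under scaling to all Gapdh and Actb probe sets (adjusted p = 0.35) or to the 3′ ones (adjusted p = 0.059). The full set includes the 5′ control sets, whose signal fell on the low arrays.

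Gpihbp1, the capillary anchor of the lipase, is measured by a single probe set. Its values were -0.54, 0.00, -1.75 and -0.47 in sWAT and -0.30, 0.81, 1.22 and 0.90 in BAT. BAT replicate 1 fell among the sWAT replicates, and sWAT replicate 3 lay far below the others. The difference was 1.35 ± 0.40 (SE, n = 4), 2.54-fold, with an adjusted p of 0.036. Both outlying samples hold a low array. The arrays of sWAT replicate 3 differed from each other by 2.50 and those of BAT replicate 1 by 2.90, against at most 0.90 in the other replicates. Without those arrays the value was 1.40 ± 0.17 (adjusted p = 0.00065), and the tissues no longer overlapped, with BAT from 0.81 to 1.22 and sWAT from -0.54 to 0.00. With all arrays the call was lost when replicate 2 was left out (1.53, adjusted p = 0.053) or replicate 4 (1.34, adjusted p = 0.074), and the difference was 0.81 without replicate 3. It was lost as well in the second arrays alone (0.50, adjusted p = 0.41), under the paired test of the methods, with each array centred (1.29, adjusted p = 0.071) and with BAT replicate 4 as the only BAT sample (1.59, adjusted p = 0.12). Of 10 endothelial markers 1 was higher in BAT and 0 were lower, with means per replicate of -0.87 to 0.27 in sWAT and -0.60 to 0.38 in BAT. Pecam1 differed by -0.43 and Cdh5 by 0.33, neither passing. Without the low arrays 5 of the 10 endothelial markers were higher and 1 was lower, with a median difference of 0.44. Their means per replicate were then -0.41 to 0.27 in sWAT and 0.05 to 0.38 in BAT. The part of endothelial content in the Gpihbp1 difference was not tested.

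Angptl4, the secreted inhibitor of the lipase, varied more among BAT samples than between tissues. On 1417130_s_at the sWAT values were -0.14, 0.19, -0.50 and -0.05, and the BAT values were -2.38, -2.09, 0.38 and 1.78. BAT replicates 1 and 2 lay below every sWAT replicate, and BAT replicates 3 and 4 lay above every one. Without the low arrays BAT replicate 3 stood at 0.38, beside 0.36 in sWAT replicate 3. The BAT range was 4.16 on the log2 scale, or 17.9-fold, and its SD exceeded that of 99.9 percent of all probe sets. The arrays of a replicate differed by at most 0.32 outside the replicates with a low array. The other probe set, 1453410_at, ranged over 0.30 in BAT and differed by 0.02 ± 0.15 between tissues. Averaged, the gene differed by -0.22 ± 0.38 (n = 4, adjusted p = 0.66), a value that gives no direction for the tissue. BAT replicate 4, the one without the Xist signal, held the highest value, and with it as the only BAT sample the gene value was 0.89 (adjusted p = 0.039), which assumes that a lone sample varies like the sWAT group.

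Vldlr, the receptor that binds triglyceride-rich particles, showed the largest rise of the 10 genes. Its sWAT values were -1.28, -0.75, -0.79 and -1.88, and its BAT values were 1.13, 1.06, 1.17 and 0.63. The lowest BAT replicate, number 4, was still well above the highest sWAT replicate, number 2. The difference was 2.17 ± 0.16 (SE, n = 4), 4.49-fold, with an adjusted p of 0.00012. All 6 of its probe sets passed, with differences from 2.0 to 2.36. The arrays of low 5′ signal changed it little, since the value without them was 2.16. In 20 of 20 alternative settings it kept its direction and its call, between 1.80 and 2.49.

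Sorl1, the sorting receptor, fell in BAT, and it was the only one of the 10 genes to do so in the test. Its sWAT values were 1.33, 0.94, 1.12 and 1.49, and its BAT values were -0.86, -0.81, -1.20 and -1.27. No replicate of a tissue came near the other tissue. The difference was -2.26 ± 0.17 (SE, n = 4), 4.78-fold lower in BAT, with an adjusted p of 0.00015. Its 3 probe sets all passed but differed in size, at -3.02 (1453003_at), -2.46 (1426258_at) and -1.29 (1460390_at). In 20 of 20 alternative settings the gene kept its direction and its call, between -3.02 and -1.93. Sorl1 is also made by blood cells. Of 9 measured lymphocyte markers 9 were lower in BAT, with means per replicate of 1.79 to 2.50 in sWAT and -2.15 to -1.85 in BAT. Cd79a differed by -1.75 and Cd79b by -5.59. The part of these cells in the Sorl1 difference was not tested.

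The promoters of Vldlr and Sorl1, the genes that moved furthest in each direction, are shown so that the sequence before their starts can be read beside the values. They are the 250 bases before the first RefSeq transcript start of each gene (GRCm38.p6), written 5′ to 3′ on the strand of the gene, and capitals mark motif matches. RefSeq windows were at hand for 6 of the 10 genes (Lmf1, Vldlr, Lrp1, Cd36, Apoe and Sorl1).
Vldlr, chr19:27216234-27216483, plus strand: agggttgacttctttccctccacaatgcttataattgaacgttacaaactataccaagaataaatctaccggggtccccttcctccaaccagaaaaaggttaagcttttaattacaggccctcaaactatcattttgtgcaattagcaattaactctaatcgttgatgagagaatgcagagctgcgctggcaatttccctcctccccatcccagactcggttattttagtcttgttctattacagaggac
Sorl1, chr9:42124298-42124547, minus strand: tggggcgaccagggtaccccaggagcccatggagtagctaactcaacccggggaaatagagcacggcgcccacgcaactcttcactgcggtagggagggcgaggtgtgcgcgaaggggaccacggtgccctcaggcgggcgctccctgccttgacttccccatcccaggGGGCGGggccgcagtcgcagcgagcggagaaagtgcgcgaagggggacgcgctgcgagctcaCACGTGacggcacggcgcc
The motifs searched, on both strands, were the GC box GGGCGG, the E-box CACGTG, the TATA box TATAAA, the CCAAT box CCAAT, the nuclear receptor hexamer AGGTCA and its direct repeat AGGTCANAGGTCA, which contains the hexamer. The Sorl1 window held a GC box that begins 81 bases before the start and an E-box that begins 19 bases before it. The Vldlr window held none of the 6 motifs. The window before the second RefSeq start of Vldlr, not printed, held a GC box and a CCAAT box. Among 32851 promoter windows, 32.7 percent held the GC box, 6.02 percent the E-box, 33.8 percent the CCAAT box and 0.0335 percent the direct repeat. Such matches describe letters, and no binding was measured.

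Lrp1, the large endocytic receptor of remnant particles, lay near the threshold. Its values were -0.10, 0.62, 0.30 and 0.26 in sWAT and -1.18, -0.43, 0.20 and 0.05 in BAT. BAT replicates 1 and 2 lay below all sWAT replicates, and BAT replicates 3 and 4 lay among them. The difference was -0.61 ± 0.20 (SE, n = 4), with an adjusted p of 0.052. The probe sets gave close values, -0.63 for 1442849_at (adjusted p = 0.045, a call) and -0.60 for 1448655_at (adjusted p = 0.11). The call of 1442849_at was lost without the replicate block (adjusted p = 0.18) and without the low arrays (adjusted p = 0.081). The gene passed without the 2 low arrays (-0.62, adjusted p = 0.027), without replicate 3 (-0.78, adjusted p = 0.032) and without replicate 4 (-0.74, adjusted p = 0.049). It did not pass without the replicate block (adjusted p = 0.11), without sWAT replicate 3 and BAT replicate 1 (-0.32, adjusted p = 0.29) or with BAT replicate 4 as the only BAT sample (-0.22, adjusted p = 0.58).

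Cd36, the fatty acid translocase, rose in BAT. Its sWAT values were -0.53, -0.06, -0.49 and -0.47, and its BAT values were 0.25, 0.21, 0.36 and 0.21. All BAT replicates lay above all sWAT replicates, and sWAT replicate 2 was the nearest. The difference was 0.64 ± 0.14 (SE, n = 4), 1.56-fold, with an adjusted p of 0.010. Of its 3 probe sets, 1450884_at (0.99) and 1423166_at (0.56) passed and 1450883_a_at (0.37) did not. The call was lost under the paired test of the methods and under either scaling to Gapdh and Actb, where the difference lay at 0.67 or above. The SE under each scaling was the same for all 10 genes. With BAT replicate 4 as the only BAT sample it was 0.60 (adjusted p = 0.10). Skeletal muscle also takes up fatty acids through Lpl, Vldlr and Cd36. Of 10 skeletal muscle markers 10 were higher in BAT, with means per replicate of -1.89 to -1.45 in sWAT and 2.09 to 3.95 in BAT. Acta1 differed by 6.21 and Tnnt3 by 5.94. BAT replicate 4 had the highest mean of the muscle list and the lowest Lpl and Vldlr values of the BAT replicates. It was also the BAT replicate without the Xist signal, so sex and muscle RNA cannot be told apart there. Its Cd36 value was 0.21, as in BAT replicate 2, and on 1450883_a_at its value of 0.44 was the highest. The part of muscle RNA in the differences of these genes was not tested.

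**Figure D2:**
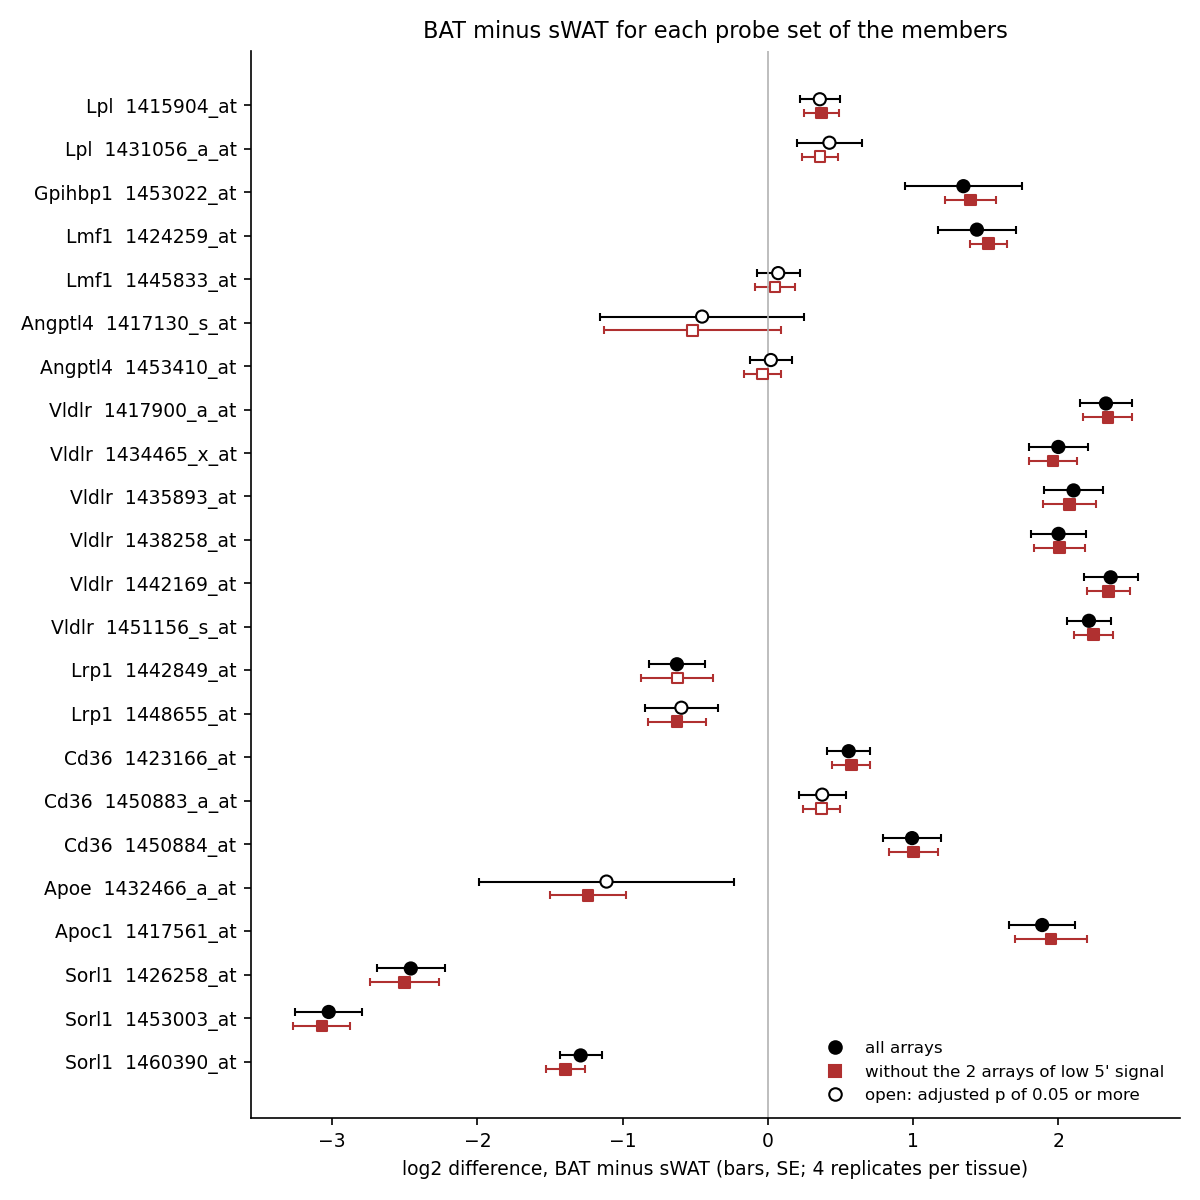
Difference of each of the 23 probe sets (BAT minus sWAT, log2, with SE) with all arrays (black circles) and without the 2 arrays of low 5′ signal (red squares), where open symbols did not pass the test. The Vldlr probe sets lie together between 2.0 and 2.36, those of Lmf1 lie apart at 0.07 and 1.44, and the error of Apoe shrinks from 0.88 to 0.26 without the low arrays.

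Apoc1, the small apolipoprotein that restrains lipoprotein lipase and receptor binding, rose in BAT. Its sWAT values were -1.48, -0.02, -1.39 and -0.90, and its BAT values were 0.61, 1.09, 1.10 and 0.97. The tissues did not overlap, and sWAT replicate 2 lay nearest to BAT. The difference was 1.89 ± 0.22 (SE, n = 4), 3.70-fold, with an adjusted p of 0.00074. It held its call in 19 of 20 alternative settings. The exception had BAT replicate 4 as the only BAT sample, where the difference was 1.92 and the adjusted p was 0.056.

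Apoe, the ligand through which receptors of this family take up remnant particles, did not pass the test with all arrays. Its values were 0.03, 0.56, -2.69 and 0.81 in sWAT and -3.99, -1.63, -0.43 and 0.33 in BAT. The lowest value of each tissue stood far from the rest, and the tissues overlapped. The difference was -1.11 ± 0.88 (SE, n = 4), with an adjusted p of 0.33. Those lowest values are again the replicates with a low array. Its values on those arrays were -5.85 and -6.64, against -2.23 to 0.82 on all the others, so the arrays of a replicate differed by 6.31 and 5.29 there. Without them the sWAT values were 0.03, 0.56, 0.47 and 0.81 and the BAT values were -1.35, -1.63, -0.43 and 0.33. The difference was then -1.24 ± 0.26 with an adjusted p of 0.0077, a call, although BAT replicate 4 still lay among the sWAT replicates. Leaving out whole replicates moved it far, to -0.14 without replicate 1 and to -2.23 (adjusted p = 0.035) without replicate 3. With BAT replicate 4 as the only BAT sample and all arrays kept, the difference turned to 0.65 (adjusted p = 0.74).

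Macrophages make Apoe, and they carry Lrp1 and Cd36. Of 10 macrophage markers 6 were lower in BAT and 1 was higher, with means per replicate of 0.05, 0.21, -0.03 and 0.62 in sWAT and -1.09, -0.42, -0.24 and 0.31 in BAT. Adgre1 differed by -0.92 and Csf1r by -1.18, and both fell. BAT replicate 1 was lowest and BAT replicate 4 highest in the macrophage mean, and with all arrays in Apoe too. Without the low arrays BAT replicate 2 held the lowest Apoe value of BAT (-1.63, against -1.35 in BAT replicate 1). That value averages -1.04 on its first array and -2.23 on its second. The second array had 5′ control signals of -1.23 relative to the 3′ ones, the lowest after the low arrays. Of 9 measured fibroblast markers 5 were lower in BAT and 0 were higher, with means per replicate of -0.07 to 1.18 in sWAT and from -1.56 in BAT replicate 1 to 0.85 in BAT replicate 4. Pdgfra differed by -0.55 and Dcn by -0.52, and both fell. The part of these cells in the Apoe, Lrp1 and Angptl4 values was not tested. Of 7 measured adipocyte markers 2 were higher and 1 was lower, and Adipoq differed by 0.21 and Cidec by 0.30 without passing.

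The low arrays reached beyond Apoe and Gpihbp1. For 15 of the 23 probe sets the gap between the arrays of sWAT replicate 3 and the gap between those of BAT replicate 1 both exceeded every gap in the other 6 replicates. The median gap was 0.58 in sWAT replicate 3 and 0.67 in BAT replicate 1, against a typical 0.14 elsewhere. The gaps were smaller, below 0.20 in both replicates, for the Lpl probe set 1415904_at, the Lmf1 probe set 1445833_at and the Vldlr probe sets 1417900_a_at and 1438258_at. Those of the Lpl probe set, 0.19 and 0.10, still exceeded its largest gap elsewhere, 0.060. Without the 2 arrays 6 of the 10 genes were higher in BAT and 3 were lower, Lpl joining the first and Apoe and Lrp1 the second.

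**Figure D3:**
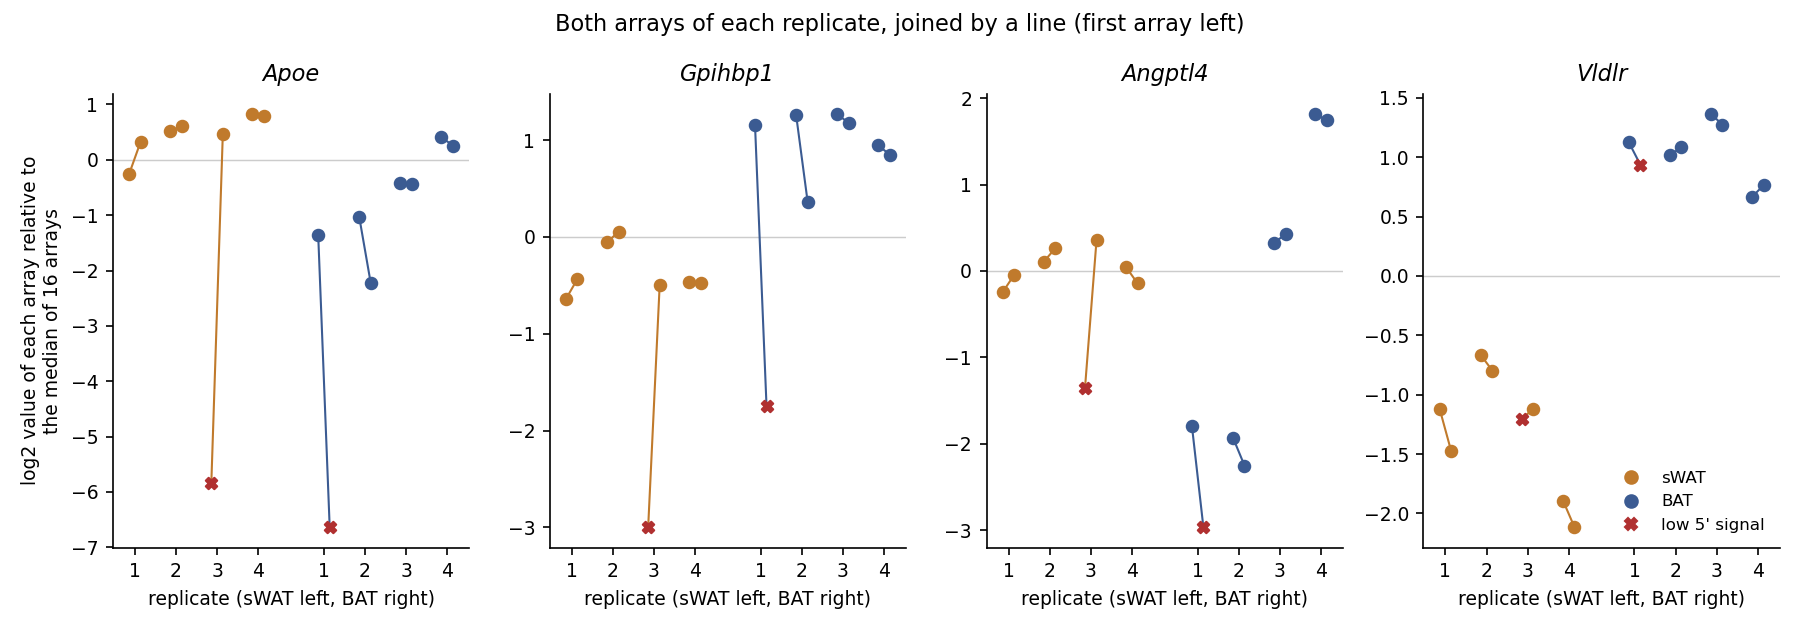
Value of each single array (log2 relative to the median of 16 arrays) for 1 probe set each of Apoe, Gpihbp1, Angptl4 (1417130_s_at) and Vldlr (1417900_a_at), by replicate, with the arrays of a replicate joined. The crossed arrays of low 5′ signal lie at -5.85 and -6.64 for Apoe but beside their partners for Vldlr. The Angptl4 values of BAT are low in replicates 1 and 2, near the highest sWAT arrays in replicate 3 and high in replicate 4.

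Of 74 measured other genes of lipoprotein handling, 25 rose in BAT (33.8 percent, against 21.0 percent of all genes), 10 fell (13.5 percent, against 17.5 percent) and 39 did not pass, with a median difference of 0.25 against 0.15 over all genes. The lists, like the 10 genes, were chosen with earlier results of these data known. Among partners and inhibitors of the lipase and other lipases, 7 of 17 measured rose (41.2 percent) and 3 fell (17.6 percent). Angptl8, which acts with its relatives to inhibit the lipase, rose by 3.33 ± 0.41 (log2, SE, adjusted p = 0.0010). Sdc1, a heparan sulphate proteoglycan that carries the lipase and particles, fell by 1.01. The intracellular lipases, chosen here after their values were seen, rose as well, Pnpla2 by 1.29 and Lipe by 0.70.

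Among lipoprotein receptors and their adaptors 5 of 24 measured rose (20.8 percent), 4 fell (16.7 percent) and 15 did not pass, shares close to the 21.0 and 17.5 percent of all genes. Sorcs2, a relative of Sorl1, rose by 1.24 ± 0.24 (adjusted p = 0.0073). Mylip, the ubiquitin ligase that marks Vldlr and its relatives for breakdown, fell by 1.12 ± 0.12 (adjusted p = 0.00057). Sort1, a further sorting receptor of the Sorl1 kind, rose by 0.80, and Lrp8, the closest relative of Vldlr, fell by 0.68. Both were named after their values were seen.

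Among apolipoproteins and lipid exporters 4 of 16 rose (25.0 percent) and 2 fell (12.5 percent). Apoo, a protein of mitochondrial inner membranes despite its name, rose by 3.38 ± 0.13. Clu, a secreted chaperone also known as apolipoprotein J, fell by 4.07 ± 0.29. Of 6 measured genes of fatty acid entry 2 rose, the transport proteins Slc27a1 (0.91) and Slc27a4 (0.45), and 0 fell. Nuclear regulators of this pathway held the highest share of the 5 lists, with 7 of 11 risen (63.6 percent) and 1 fallen. Ppara, a nuclear receptor of fatty acid oxidation genes, rose by 4.32 ± 0.23 and its coactivator Ppargc1a by 3.24 ± 0.25. Srebf2, the regulator of cholesterol synthesis, fell by 0.89.

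**Figure D4:**
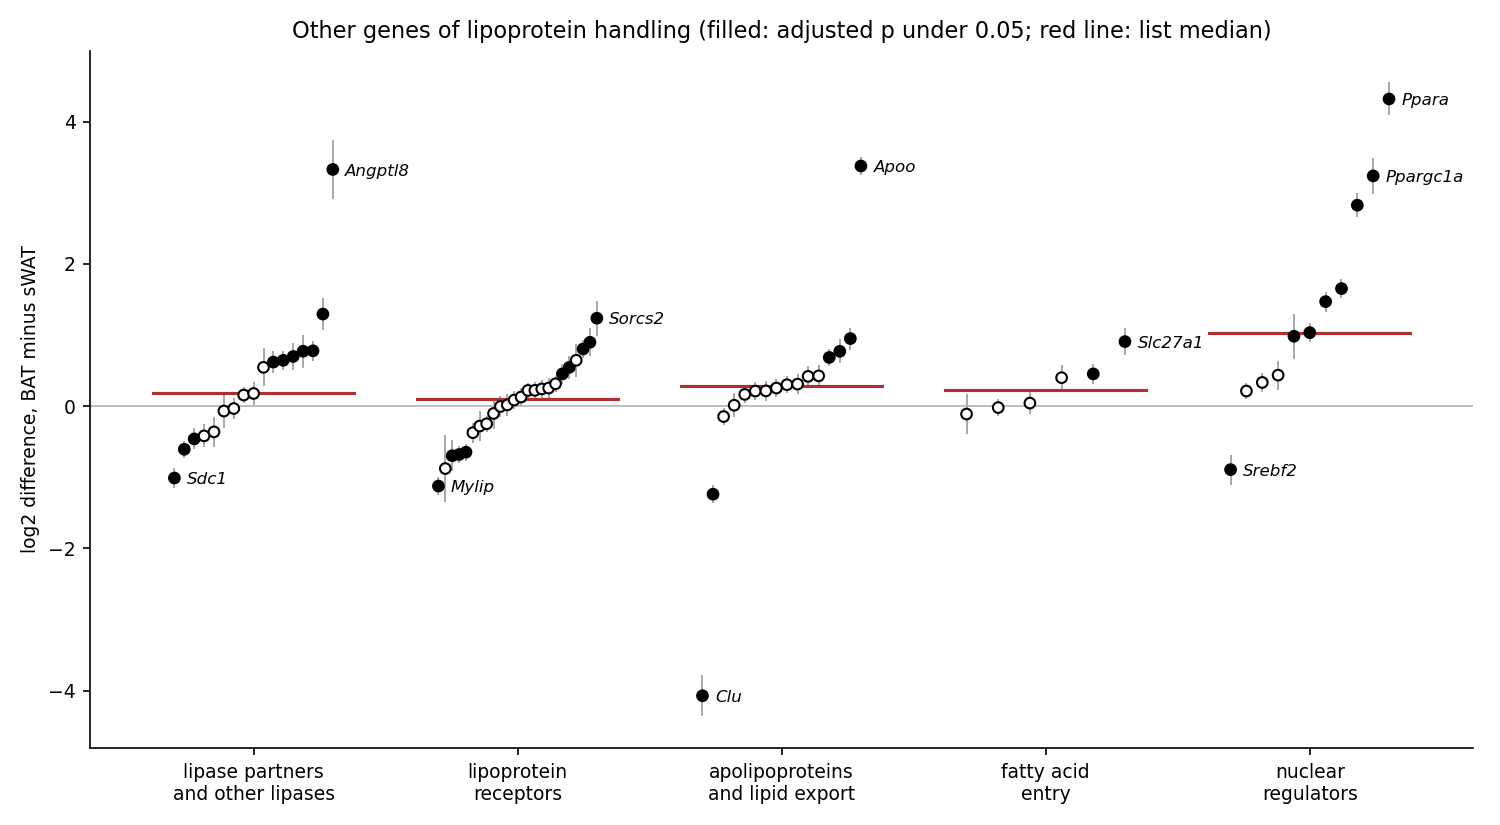
Difference (BAT minus sWAT, log2, with SE) of 74 other genes of lipoprotein handling in 5 lists, each point a gene and each red line the median of a list. The list medians run from 0.11 for receptors to 1.03 for nuclear regulators, and Ppara at 4.32 and Clu at -4.07 lie farthest from 0.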

How the data were processed

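The authors extracted total RNA (with Trizol per the labels, with a RiboPure kit per the methods), labelled it with biotin, hybridised it to Affymetrix mouse arrays and summarised the probe sets by RMA with quantile normalization in GeneSpring. The deposited table holds log2 values for 45101 probe sets on 16 arrays. Every probe set has its median at 0 across arrays, so differences can be read and levels cannot. Arrays give no counts, and their number limits the precision. A probe set's gene came from the platform annotation (34958 name 1 gene, 932 several and 9211 none).

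The 2 arrays of each replicate were averaged. limma 3.58.1 in R 4.3.3 (lmFit, eBayes) compared 4 BAT with 4 sWAT replicates. The replicate number was the block, since the methods state that both tissues came from each mouse. Benjamini-Hochberg adjustment was over all probe sets and, on the mean of single-symbol probe sets, over 18194 genes. A call is an adjusted p under 0.05. The scripts were tested on simulated data. There 19 percent of changes of 1 (log2) and 81 percent of changes of 2 were called, so a change of 1 mostly went uncalled. The block was checked: deviations of same-numbered samples correlated at -0.23, 0.06, -0.35 and 0.23, and Xist differed within numbers 1, 2 and 3. By Xist those numbers do not join tissues of the same animal, so the block is not a true pairing there.

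The members and lists were chosen with earlier results of these data known. Named genes are the members, the highest and lowest passing gene of each list, the 5 largest over all lists, the first 2 measured markers of each type and the 5 genes nearest to Lpl. Pnpla2, Lipe, Sort1, Lrp8, Apoc2 and Apoc4 were named outside this rule after their values were seen. Alternatives were the block, single arrays, the paired t-test of the methods, other scalings and filters, and leaving out arrays or replicates. Promoter windows came from RefSeq.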

Additional observations from a re-analysis of the deposited data

Results flagged for a closer look

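A single replicate standing apart was looked for in 66 groups of 4 replicates, comparing the gap of the most extreme replicate with the range of its group. Chance marks about 1 in 20 such groups, and 3 were marked. Angptl4 in sWAT replicate 2 was 0.27 (gene value, log2), against -0.22 to -0.16 in the other sWAT replicates. Cd36 in sWAT replicate 2 was -0.057, against -0.53 to -0.47 in the others. Vldlr on 1451156_s_at in BAT replicate 4 was 0.60, against 1.28 to 1.36 in the other BAT replicates.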

How the results depend on the processing

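Vldlr and Sorl1 kept direction and call in 20 of 20 alternatives and Apoc1 in 19 of 20. Calls of the 10 genes were 5 higher and 1 lower. They became 6 and 1 without the replicate block, 3 higher in the second arrays alone, 3 higher under the paired t-test of the methods, 3 higher scaled to all Gapdh and Actb probe sets, 3 higher and 2 lower scaled to the 3′ ones, 3 lower without the low arrays and 2 lower with the least variable probe sets left out. Scaled to all Gapdh and Actb or to the 3′ ones, all 10 genes had the same SE (0.56 or 0.31). Their calls there follow the size of the difference alone. Scaling to all Gapdh and Actb uses the 5′ control sets as well. The signal of those sets relative to the 3′ ones was -4.79 and -3.56 (log2) on the low arrays. Apoe, with an SE of 0.88 in the main fit, is among the genes lower scaled to the 3′ sets. Probe sets higher were 6 under the paired t-test, and under scaling to all Gapdh and Actb 2 were lower. Without the block they were 11 higher and 3 lower. The numbers do not pair the samples in the data. Other pathway genes higher and lower were 10 and 7 under the paired t-test, 7 and 1 scaled to all Gapdh and Actb, and 15 and 6 scaled to the 3′ sets, from 25 and 10. Over the whole array 6818 were higher and 7787 lower, against 2243 and 2873 under the paired t-test, 1621 and 1140 scaled to all Gapdh and Actb, and 3674 higher scaled to the 3′ sets. Scaling to all Gapdh and Actb moved the median of all probe sets from 0.13 to 0.45 and the share of calls that were higher from 46.7 to 58.7 percent over the array, from 71.4 to 87.5 percent in the pathway and from 83.3 to 75 percent in the 10 genes, which stood at 60 percent scaled to the 3′ sets. Leaving out the less variable probe sets gave a median of -0.12 over those left. With each replicate left out in turn, the genes lower numbered 1 to 3, pathway genes lower 6 to 13 and probe sets of the array higher 4038 to 6470. Settings chosen after seeing the data left out BAT replicates 1 to 3 (3 genes, 6 probe sets and 15 pathway genes higher, 6 pathway genes lower, 3015 higher and 4384 lower over the array). Signs turned only for values that had not passed. The Angptl4 gene value was 0.11 scaled to all Gapdh and Actb, 0.065 without sWAT replicate 3 and BAT replicate 1, 0.89 without BAT replicates 1 to 3 and 0.021 on the probe set 1453410_at alone. On 1417130_s_at it was 0.024 without sWAT replicate 3 and BAT replicate 1, and 1.91 without BAT replicates 1 to 3. On 1453410_at it was -0.20 in the first arrays, -0.037 without the low arrays, -0.040 with each array centred and -0.13 without BAT replicates 1 to 3. With each replicate left out in turn the Angptl4 gene ran from -0.62 to 0.14, 1417130_s_at from -1.21 to 0.16, 1453410_at from -0.052 to 0.12 and Lmf1 on 1445833_at from -0.053 to 0.12. Apoe was 0.59 in the first arrays and 0.65 without BAT replicates 1 to 3. Lmf1 on 1445833_at was -0.028 without sWAT replicate 3 and BAT replicate 1. Without BAT replicates 1 to 3, Lpl on 1431056_a_at was -0.011 and Lrp1 on 1448655_at 0.28. The cause was not tested.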

Other observations

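Apoc1 and Apoe are neighbours on the chromosome, in the RefSeq order Apoc2, Gm44805, Apoc4, Apoc1, Apoe and Tomm40. Their differences between tissues (BAT minus sWAT, log2) were 1.89 for Apoc1 and -1.11 for Apoe with all arrays, and 1.95 and -1.24 without the 2 arrays of low 5′ signal. Apoc4 differed by 0.30 and Apoc2 by -0.42, and neither passed the test.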
